A study of Mus musculus with 15 samples.

Results

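Ribosomal protein pseudogenes are genes of the linear transcript table whose symbol begins with Rpl or Rps and carries the suffix -ps and a number, such as Rpl10-ps3. A transcript was counted under a gene when its class code was =, c, j or o, that is, when the assembled transcript matched, was contained in, shared a splice junction with or overlapped an exon of the annotated gene. The rule found 184 of 33058 genes, 115 named for a protein of the large ribosomal subunit and 69 for a protein of the small subunit. They were set beside the 50 ribosomal protein genes they are named after, called parents below.

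Kidney RNA of male mice, C57BL/6 in the labels and C57BL/6J in the study's methods, was sequenced, 1 library per mouse, with 5 mice at 3 months of age, 5 at 12 months and 5 at 24 months. All were fed an ordinary rodent diet, and the labels name no treatment or engineered allele for any group. The labels give each library a replicate number and do not say more of how the mice were kept apart, so p-values measure the spread between these mice. Levels are given as FPKM, in which the fragments of a transcript are divided by its length and by the depth of the library, and were summed over the transcripts of a gene. The 3 ages were compared to ask how RNA levels in the kidney change as mice grow old.

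Most pseudogenes of this kind are processed copies: a spliced messenger RNA was reverse transcribed and inserted elsewhere in the genome, so the copy has no introns and usually no promoter of its own. Ribosomal protein genes have many such copies in mammals, because their messenger RNAs are short and abundant. A recent copy is nearly identical to its parent, and a short read from one can match the other.

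The coding sequences show how close the copies are, and the genes shown were chosen because their levels are described below. A level counted under a gene need not come from the stretch printed. That of Rpl21-ps14 was the level of a longer assembled transcript, as described below. Sequences are from the GENCODE M21 transcripts on GRCm38, the build of the deposited coordinates, and positions count from the first base of the parent's start codon. Rpl10-ps3 (chr9:50344201-50344968, minus strand) had the highest level, and its copy of Rpl10, a protein of the large subunit, had no mismatch in 740 aligned bases. Positions 1 to 120 read the same in both.

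Rpl10 and Rpl10-ps3: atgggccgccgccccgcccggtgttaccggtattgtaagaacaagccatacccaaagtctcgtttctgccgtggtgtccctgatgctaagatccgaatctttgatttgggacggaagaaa

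Rps2-ps13 (chrX:52898588-52899469, plus strand) is 1 of 7 copies of Rps2, a small-subunit protein, and 7 of its 882 aligned bases differed from Rps2. In the lines for pseudogenes, capitals mark bases that differ from the gene of the line above.

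Rps2: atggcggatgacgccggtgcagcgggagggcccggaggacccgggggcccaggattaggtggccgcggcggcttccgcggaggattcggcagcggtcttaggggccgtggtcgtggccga
Rps2-ps13: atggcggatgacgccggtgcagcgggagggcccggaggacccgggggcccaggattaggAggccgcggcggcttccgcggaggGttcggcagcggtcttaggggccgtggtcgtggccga

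Rplp0-ps1 (chr3:93278141-93279073, plus strand) differed more from Rplp0, the stalk protein P0 of the large subunit, with 40 mismatches and 15 gap positions in 948 aligned columns. Positions 602 to 721 held 10 mismatches, the most of any gapless window of this length.

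Rplp0: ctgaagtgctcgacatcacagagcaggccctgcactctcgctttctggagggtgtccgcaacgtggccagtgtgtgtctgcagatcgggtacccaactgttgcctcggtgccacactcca
Rplp0-ps1: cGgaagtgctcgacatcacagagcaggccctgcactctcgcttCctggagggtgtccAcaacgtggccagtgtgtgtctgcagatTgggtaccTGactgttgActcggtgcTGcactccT

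Rpl21-ps14 (annotated at chr8:4861169-4861651, plus strand) and Rpl28-ps4 (chr6:117213690-117214066, minus strand) are shown because their levels are described by age below. The 483 aligned bases of Rpl21-ps14 held 14 mismatches and an open reading frame of 483 bases, the length of the Rpl21 coding sequence. Rpl28-ps4 was more diverged, at 89.1% identity and 41 mismatches in 377 bases, and its longest open reading frame was 39 bases. The windows run from position 332 to 451 of Rpl21 and from 112 to 231 of Rpl28.

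Rpl21: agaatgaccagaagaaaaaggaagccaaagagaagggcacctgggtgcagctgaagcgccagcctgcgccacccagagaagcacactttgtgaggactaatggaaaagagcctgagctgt
Rpl21-ps14: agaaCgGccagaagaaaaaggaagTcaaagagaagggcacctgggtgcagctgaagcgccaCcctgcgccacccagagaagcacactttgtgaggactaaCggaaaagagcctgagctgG
Rpl28: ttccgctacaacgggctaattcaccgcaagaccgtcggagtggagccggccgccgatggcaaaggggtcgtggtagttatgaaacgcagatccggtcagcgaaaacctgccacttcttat
Rpl28-ps4: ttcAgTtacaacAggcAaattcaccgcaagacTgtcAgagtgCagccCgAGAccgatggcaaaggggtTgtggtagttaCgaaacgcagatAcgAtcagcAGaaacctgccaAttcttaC

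Rpl36a-ps3 (chr6:136488807-136489127, plus strand) did not follow its name. It had 40 mismatches to Rpl36a in 321 aligned bases, 87.5% identity, but 1 mismatch to Rpl36al, the intronless gene on chromosome 12 that codes for a near-identical protein. Positions 1 to 120 were the same in Rpl36al and Rpl36a-ps3 and differed from Rpl36a at 18 bases.

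Rpl36a: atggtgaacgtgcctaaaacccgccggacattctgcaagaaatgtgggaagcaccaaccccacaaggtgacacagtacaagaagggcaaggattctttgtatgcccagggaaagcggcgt
Rpl36a-ps3: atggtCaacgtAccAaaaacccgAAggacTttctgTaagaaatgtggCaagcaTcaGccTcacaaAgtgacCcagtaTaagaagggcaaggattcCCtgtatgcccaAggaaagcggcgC

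Over the 182 pseudogenes whose leading transcript is in M21, identity to the closest transcript of the named parent ranged from 75.2% to 100% with a median of 98.1%. M21 listed 172 of them as processed pseudogenes and 4, Rpl10-ps3, Rps12-ps3, Rpl9-ps6 and Rpl36a-ps1, as protein coding. An open reading frame of at least 99% of the parent's coding length was left in 72 of the 182. Of the 184 members, 182 had a single exon in their leading transcript, and 77 overlapped another annotated gene, 25 of them on the same strand.

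To measure how far reads can be told apart, each pseudogene was divided into all windows of 50 bases, and each window was looked for in the transcripts of every other gene. A median of 57.9% of a pseudogene's windows was found elsewhere, 173 of 182 shared at least 1 window, 25 shared every window, and 9 shared none. For 88 the gene sharing most windows was the parent, and for 31 it was another pseudogene named -ps. Among the 10 pseudogenes with the highest mean FPKM the median share was 96.2%, and windows as long as a read, 150 bases, were still shared in a median of 95%. How reads matching several genes were divided is not given in the sources used here, and FPKM of a pseudogene that shares most of its windows cannot be assigned to the copy alone.

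The levels were low and uneven. All 184 pseudogenes were above 0 in at least 1 mouse, but 110 had a mean under 0.1 FPKM over the 15 mice, 50 lay between 0.1 and 1, and 24 had at least 1. Only 39 were above 0 in all 15 mice and 27 were above 0 in a single mouse. The median over the members was 0.0481 FPKM, while their parents had a median of 53.7 FPKM. A mouse had between 92 and 112 pseudogenes above 0.

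Rpl10-ps3 was the highest by far, with a mean of 33.9 FPKM and 23.3% of the FPKM of all 184. Rps6-ps4, a copy of the small-subunit protein phosphorylated downstream of mTOR, followed with 11.3 FPKM. The next were Rps2-ps13 with 9.17, Rpl27-ps3 with 7.68, Rpl5-ps1 with 6.85, Rps2-ps6 with 6.79, Rpl10a-ps1 with 6.48, Rps2-ps10 with 5.52, Rpl15-ps3 with 4.72 and Rpl3-ps1 with 4.49 FPKM. This order rests on libraries that differed, as described below. By mean over 9 of the 15 libraries Rps2-ps13, at 7.09 FPKM, was above Rps6-ps4, at 6.69. By the same means Rpl27-ps3, at 3.05, was below Rpl5-ps1, at 5.54. Not each of the 9 was ordered so: 12-month replicate 21 had 5.87 FPKM of Rps2-ps13 and 12.5 of Rps6-ps4. In 3-month replicate 6 Rpl27-ps3 had 5.77 FPKM and Rpl5-ps1 4.19. The 10 pseudogenes named here held 66.6% of the summed FPKM. In sequence, 8 of the 10 were at least 99% identical to the parent, and 8 kept a reading frame of at least 99% of its length.

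Higher levels went with closer sequence as a description over 182 genes that share libraries and reads: Spearman's rho between mean FPKM and identity was 0.30, and between mean FPKM and the share of windows found elsewhere 0.34. The 23 matched pseudogenes with at least 1 FPKM had a median identity of 99.2%, against 98.8% for the 50 between 0.1 and 1 FPKM and 97.3% for the 109 under 0.1. Of the 57 pseudogenes at least 99% identical to the parent, 12 had 1 FPKM or more.

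**Figure D1:**
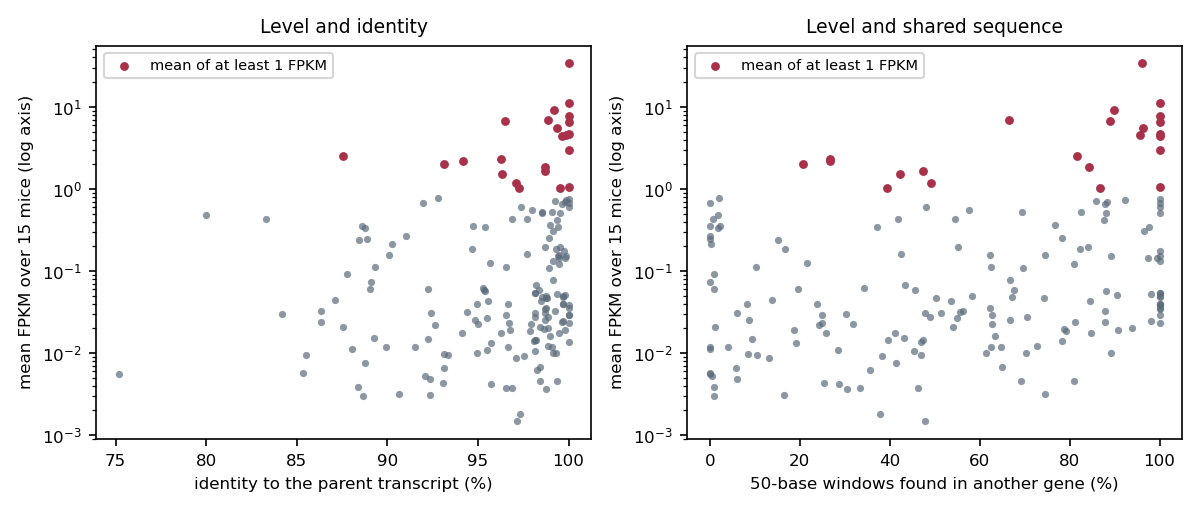
Each point is 1 of the 182 pseudogenes found in M21, with its mean FPKM over 15 mice on a log axis against its identity to the parent (left) and against the share of its 50-base windows found in another gene (right). Red points have a mean of at least 1 FPKM and have medians of 99.2% on the left axis and 89.1% on the right, while points under 1 FPKM spread over the whole range of both.

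Family size and level did not go together in the families with most copies. Rpl31 had 15 members whose means summed to 3.04 FPKM, of which Rpl31-ps20 held 2.30, and Rpl21 had 11 members summing to 2.72. The 10 copies of Rps19 summed to 1.64 FPKM with none at 1 or above, whereas the 7 copies of Rps2 summed to 25.1 FPKM and 5 of them had at least 1. Copies of large-subunit genes summed to 93.3 FPKM, 4.16% of their 31 parents, and copies of small-subunit genes to 52.1 FPKM, 3.33% of their 19 parents.

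Against its own parent a pseudogene was usually far lower. The median member had 0.108% of its parent's mean FPKM and 153 of the 184 had under 1%. Among those with at least 1 FPKM the highest ratios were 24.8% for Rpl15-ps3, 21.8% for Rpl36a-ps3 and 15.2% for Rpl10-ps3. Their order also differed by library: in the same 9 libraries they were 21.1%, 9.14% and 10.6%, and in the other 6 they were 31.6%, 39.9% and 23.4%. Rpl36a-ps3 had 13.4% of the mean of Rpl36al, the gene it matched best, which was at 18.7 FPKM. By mouse this ratio was 3.43% to 6.93% in the 9 libraries and 12.2% to 183% in the 6. The 183% was in 24-month replicate 34, where Rpl36al was at 2.01 FPKM.

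The libraries fell into separate ranges of pseudogene FPKM before any comparison by age. Summed over the 184 members, 6 libraries had 182 to 245 FPKM and the other 9 had 97.3 to 116, with none between. The 6 were 3-month replicate 8, 12-month replicates 17, 18 and 19, and 24-month replicates 31 and 34, so every age had both kinds, in unequal numbers. The summed parents overlapped, at 3358 to 4625 FPKM in the 6 and 3324 to 4345 in the 9. Pseudogenes thus held 4.87% to 5.47% of pseudogene and parent FPKM together in the 6 and 2.37% to 3.00% in the 9.

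The gap lay largely in copies with high FPKM. Since the libraries were divided by this sum, the following is a description: 13 of 184 pseudogenes were higher in all 6 than in any of the 9, which was 7.07%, against 0 of the 50 parents, 6 of 244 pseudogenes of other genes (2.46%) and 195 of all 33058 genes (0.59%). The 13 included 6 of the 10 highest and held 55.8% of the members' FPKM. Rpl27-ps3, identical to the large-subunit gene Rpl27 over the 411 bases annotated in M21, ran from 8.95 to 19.7 FPKM in the 6 and from 1.40 to 5.77 in the 9. Its parent Rpl27 ran from 56.4 to 89.7 FPKM in the 6 and from 73.5 to 127 in the 9. Rps2-ps6 ran from 7.26 to 17.8 FPKM in the 6 and from 2.30 to 3.78 in the 9.

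Pseudogenes of other genes, 244 with the suffix -ps, were also higher in the 6, at 100 to 137 FPKM against 75.5 to 91.3 in the 9. Their widest gap lay elsewhere, between 3-month replicate 8 at 100 FPKM and 24-month replicate 31 at 121 FPKM. The measures that follow did not separate the 6 from the 9. The aligned sequence, estimated as deposited coverage over FPKM, was 5.03 to 8.03 Gb in the 6 and 5.59 to 7.17 Gb in the 9. The 10 most abundant transcripts took 8.89% to 10.7% of FPKM in the 6 and 8.94% to 11.2% in the 9. None of 24 markers of kidney and other cell types separated the 6 from the 9. Of all genes, 0.59% were higher and 0.0363% lower in all 6 than in any of the 9. At such shares, none of 24 markers does not show that the cell types were alike. What set the 6 apart was not tested, and the calls by age are given with and without the 6.

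**Figure D2:**
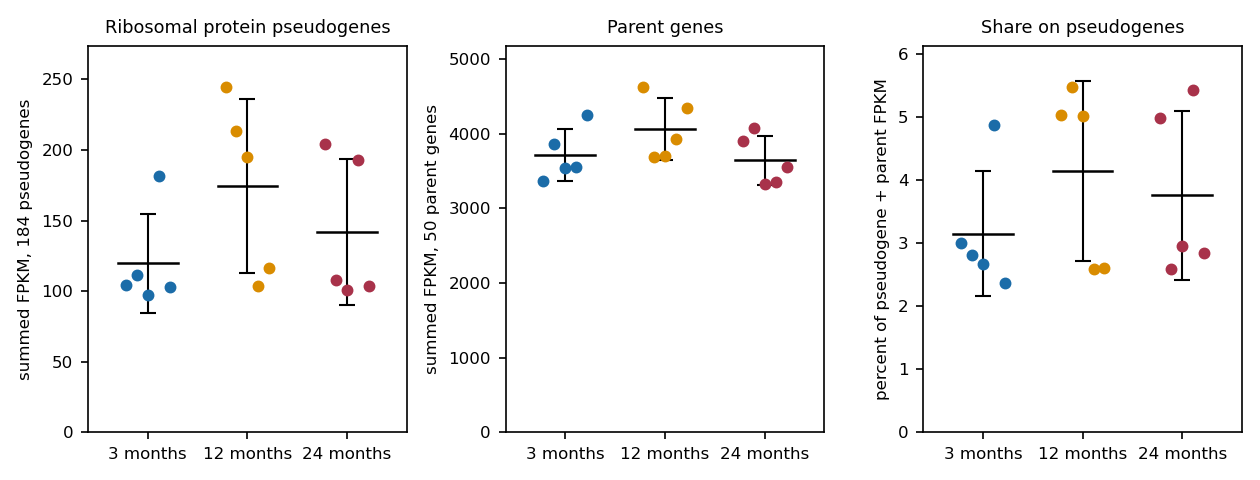
Each point is 1 mouse, with the summed FPKM of 184 pseudogenes (left), the summed FPKM of their 50 parents (middle) and the percent of both sums together that lay on pseudogenes (right), at 3, 12 and 24 months. Bars are the mean and SD of 5 mice. In the left and right panels 1 mouse at 3 months, 3 at 12 months and 2 at 24 months lie above the rest of the points with a gap between, and in the middle panel they do not.

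**Figure D3:**
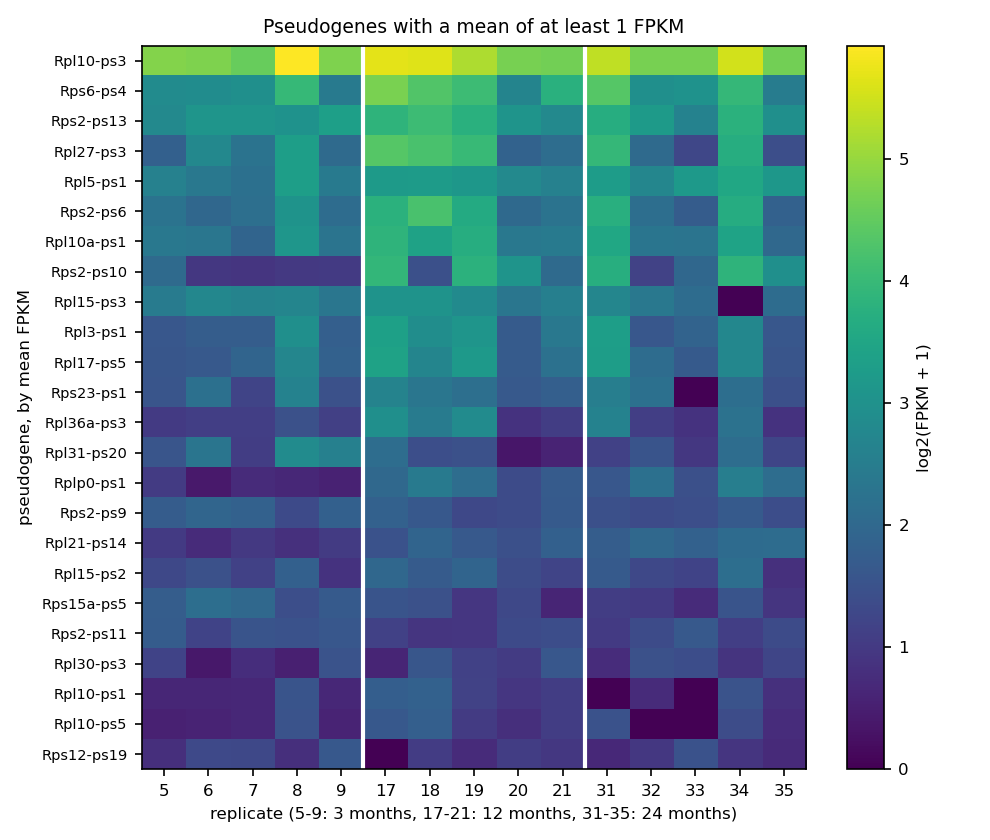
Rows are the 24 pseudogenes with a mean of at least 1 FPKM, columns the 15 mice by age and replicate, and colour is log2(FPKM + 1). Replicates 8, 17, 18, 19, 31 and 34 are brighter in most of the upper rows, while Rplp0-ps1 and Rpl21-ps14 are darker in all 5 mice at 3 months.

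By age, the share of pseudogene and parent FPKM on pseudogenes was 3.14% ± 0.991 (SD, n = 5) at 3 months, 4.14% ± 1.42 at 12 months and 3.75% ± 1.34 at 24 months. The ages overlapped. With the 6 libraries left out it was 2.71%, 2.59% and 2.79% in 4, 2 and 3 mice. The 6 were set apart by the pseudogene sum that enters this share, so the closeness of these means is built in.

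In the comparison of 24 with 3 months, the question was which pseudogenes changed in the old kidney. Of the 184 members, 176 were above 0 in at least 1 of the 10 mice and were tested with limma on log2(FPKM + 1), with p-values adjusted by the method of Benjamini and Hochberg over all 31755 genes tested. Rpl21-ps14, Rplp0-ps1 and Rps2-ps10 were higher at 24 months by more than 1 on the log2 scale with an unadjusted p under 0.05. That is 3 of 176, 1.70%, where 0.523% of all genes tested met the same call, and none was lower. By adjusted p under 0.05 it was 2 of 176 members, Rpl21-ps14 and Rplp0-ps1, and 1.22% of all genes. In the mice outside the 6 libraries 3 of 168 members met the call, 1.79% against 0.583% of all genes, with Rpl21-ps14 and Rplp0-ps1 higher and Rps15a-ps5 lower. With a pseudocount of 0.1 in place of 1 the call was met by 10 members, 6 higher and 4 lower, which was 5.68% against 3.29% of all genes.

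At an unadjusted p under 0.05 alone, 13 of 176 members passed, 7.39%, against 14.9% of all genes. Of these, 8 were higher and 5 lower at 24 months, which was 4.55% and 2.84% of the members against 11.4% and 3.47% of all genes. The median log2 fold change was 0.01 over the members and 0.02 over all genes. The share of members past this limit was below the background. It was also below it when the 6 libraries were left out, at 12 of 168 members, 7.14%, against 11.3% of all genes. Members were mostly low: only 22 of 176, against 13360 of 31755 genes, had a mean of at least 1 FPKM in the mice compared. Among these the call was met by 3 members, 13.6%, against 1.24% of genes. How far the difference in level enters these shares was not tested. None of the 50 parents met the call, and 6 passed the unadjusted limit alone: Rpl36a and Rpl22 were higher, and Rpl10, Rpl15, Rpl18 and Rps2 lower, with adjusted p between 0.168 and 0.272. Leaving out the 6 libraries, Rpl30, higher, and Rpl15, lower, passed that limit, 4% of the parents, and none met the call. Those parents were named after their values were seen.

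Rpl21-ps14 had the smallest p of the members. The 3-month-old mice had 0.662, 0.772, 0.976, 1.02 and 1.05 FPKM. At 12 months the values were 1.73, 1.84, 2.17, 2.51 and 2.77, and at 24 months 2.38, 2.59, 3.02, 3.17 and 3.26. No mouse at 3 months reached any older mouse, and 12 and 24 months overlapped. The mean was 0.897 ± 0.171 FPKM at 3 months and 2.88 ± 0.384 at 24 months (SD, n = 5), a log2 fold change of 1.03 with a standard error of 0.11 and an adjusted p of 0.0088 by limma. Its named parent Rpl21, a large-subunit protein, had 24.4 ± 6.68 and 29.5 ± 7.03 FPKM, with an adjusted p of 0.592. Without the 6 libraries the log2 fold change of Rpl21-ps14 was 1.04, still past the fold limit, with an adjusted p of 0.0915 by limma, in 4 mice against 3.

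The transcript counted under Rpl21-ps14 was longer than the pseudogene. It was an assembled transcript of 5724 bases and 2 exons at chr8:4847092-4883796, whose class code o marks an exon overlap on the same strand, and no row with the annotated structure was counted. With annotated transcripts only, Rpl21-ps14 had no value. A transcript next to it on the same strand was also higher at 24 months. In a fit over 124719 transcripts, added after the values were seen, the unannotated transcript at chr8:4883871-4886370 had 1.46 ± 0.255 FPKM at 3 months, 3.69 ± 0.786 at 12 months and 5.11 ± 0.978 at 24 months. Its log2 fold change was 1.31 with a standard error of 0.14 and an adjusted p of 0.0258, and in the same fit that of the Rpl21-ps14 transcript was 1.03 with an adjusted p of 0.0433. The others of this stretch with at least 0.5 FPKM at some age, within 60000 bases, had adjusted p between 0.483 and 0.879.

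Rplp0-ps1 rose by the largest fold among members passing the adjusted limit. At 3 months the mice had 0.318, 0.481, 0.578, 0.655 and 1.03 FPKM. At 12 months they had 1.56, 2.27, 3.04, 3.36 and 4.39, and at 24 months 1.73, 2.04, 3.33, 3.53 and 4.84. Again all 5 mice at 3 months lay below all 10 older mice. The mean went from 0.613 ± 0.266 to 3.09 ± 1.25 FPKM between 3 and 24 months, a log2 fold change of 1.30 with a standard error of 0.22 and an adjusted p of 0.0308 by limma. Rplp0 itself had 222 ± 24.1 and 196 ± 23.4 FPKM, with an adjusted p of 0.535. When the 6 libraries were left out the log2 fold change was 1.23 with an adjusted p of 0.164 by limma. With any mouse of 3 months or 24-month replicate 34 or 35 left out, the adjusted p was also above 0.05. It reached up to 0.0687 by limma, with log2 fold changes of 1.16 to 1.39. Only 26.7% of the 50-base windows of Rplp0-ps1 were found in another gene, and 11.4% in Rplp0.

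M21 places Rplp0-ps1 inside Flg, the gene of the skin protein filaggrin, in an intron and on the same strand. A transcript of Flg at chr3:93273523-93278045 ended 96 bases before the pseudogene began. It had 0.372 ± 0.147 FPKM at 3 months, 1.89 ± 0.883 at 12 months and 2.54 ± 1.24 at 24 months, and its log2 fold change from 3 to 24 months was 1.31 with a standard error of 0.21 and an adjusted p of 0.129 in the fit over transcripts. In that fit Rplp0-ps1 had an adjusted p of 0.152. Whether both are parts of a single RNA was not tested.

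Rps2-ps10 (chr18:61259008-61259972, minus strand) lies in an intron of Pde6a on the opposite strand. The mice had 0.885, 0.939, 0.981, 1.0 and 3.13 FPKM at 3 months, 1.73, 3.11, 7.41, 13.0 and 14.1 at 12 months, and 1.26, 2.96, 6.78, 12.1 and 13.4 at 24 months. The ages overlapped through 3-month replicate 5 and the lower old mice. The log2 fold change was 1.55 with a standard error of 0.51 at 24 months and 1.68 with a standard error of 0.49 at 12 months, with adjusted p of 0.187 and 0.170 by limma. Of the 4 older mice with over 10 FPKM, all were among the 6 libraries that stood apart. Without those 6 the log2 fold change at 24 months was 0.81, with an unadjusted p of 0.134 by limma, and the call was lost. Its 2 overlapping annotated transcripts also divided the FPKM differently between mice: the shorter was listed at 0 in 5 mice in which the longer had 2.96 to 12.1 FPKM.

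Rpl28-ps4 had the third smallest p at low levels. It was listed at 0 in all 10 mice of 3 and 12 months, and at 0.111, 0.114, 0.198, 0.250 and 0.437 FPKM in the 5 mice of 24 months. It was thus tested only through the mice of 24 months, where it was above 0, so its p and its separation are a description. On the log2(FPKM + 1) scale the difference was 0.28 with a standard error of 0.06 and an adjusted p of 0.0683 by limma, so it did not pass the adjusted limit. The difference was 0.25 without the 6 libraries. None of its 50-base windows was found in another gene. Its parent Rpl28 had 39.0 ± 9.01 FPKM at 3 months and 38.8 ± 4.07 at 24 months.

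**Figure D4:**
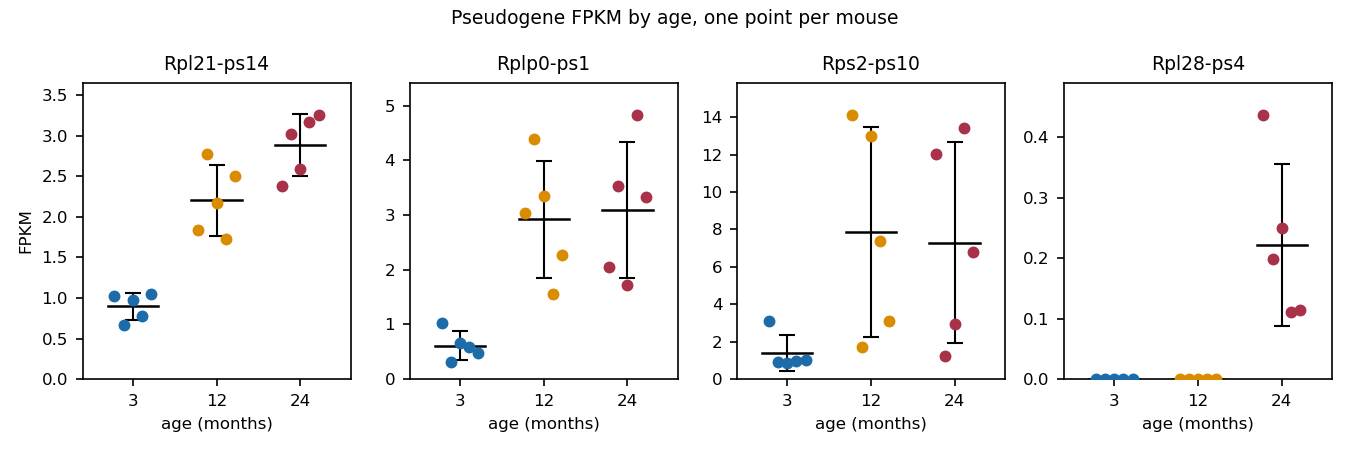
Each point is 1 mouse and gives the FPKM of Rpl21-ps14, Rplp0-ps1, Rps2-ps10 and Rpl28-ps4 at 3, 12 and 24 months, and bars are the mean and SD of 5 mice. For Rpl21-ps14 and Rplp0-ps1 all 5 points at 3 months lie below all older points, for Rps2-ps10 the ages overlap, and for Rpl28-ps4 every point at 3 and 12 months is at 0.

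The groups did not overlap at 24 against 3 months in 3 of 176 members, 1.70%, all higher and all described above, against 4.73% of all genes. Rpl28-ps4, among them, was tested only through its values at 24 months. Of the members tested, Rps15a-ps5 had the most negative log2 fold change. It is a copy of a small-subunit gene in an intron of Lrrc8d on the opposite strand and was chosen after its values were seen. It had 1.68, 2.22, 2.38, 3.00 and 3.44 FPKM at 3 months and 0.655, 0.875, 1.01, 1.1 and 1.91 at 24 months, a log2 fold change of -0.75 with a standard error of 0.19 and an adjusted p of 0.0892 by limma. Without the 6 libraries its ranges at those ages, 2.22 to 3.44 and 0.655 to 1.01 FPKM, did not overlap, and it met the call. The overlap had lain between 3-month replicate 8, at 1.68 FPKM, and 24-month replicate 34, at 1.91, both among the 6. The share of all genes not overlapping in the mice left was not computed.

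Markers of B-lineage cells also moved with age. Summed over Cd79a, Igkc and Jchain they had a median of 27.8 FPKM at 3 months, with a range of 9.81 to 93.1, of 243 at 12 months, from 53.0 to 371, and of 116 at 24 months, from 86.7 to 198. Of 24 markers of kidney and other cell types, Cd79a, Jchain and Star were higher in all 5 mice at 24 months than in any at 3 months and Slc5a2 was lower. Their part in the changes above was not tested. In RNA of whole tissue, fewer cells of a type and less RNA per cell cannot be told apart. The kidney markers Slc34a1, Umod and Kap had at least 689 FPKM in every mouse. Of the adrenal markers, Cyp11b1 had at most 0.0107 FPKM, while Star, named above as higher at 24 months, had 1.05 to 3.24.

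At 12 against 3 months, 165 members were tested and 2, Rplp0-ps1 and Rps2-ps10, met the call, 1.21% against 0.499% of the 31637 genes tested. None had an adjusted p under 0.05 by limma, against 0.25% of all genes. At an unadjusted p under 0.05 there were 17 members, 10.3% against 14.3% of all genes, of which 13 were higher and 4 lower, 7.88% and 2.42% against 11.4% and 2.9%. Rplp0-ps1 had a log2 fold change of 1.25 with a standard error of 0.21 and an adjusted p of 0.0513, and Rpl21-ps14 one of 0.75 with a standard error of 0.13 and an adjusted p of 0.0524. Without the 6 libraries, which left 2 mice at 12 months, Rplp0-ps1 had a log2 fold change of 0.85 and lost the call, and Rpl31-ps20, lower at 12 months, met it beside Rps2-ps10. That was 2 of 149 members, 1.34% against 0.703% of all genes, and the log2 fold change of Rpl21-ps14 was then 0.69 with an adjusted p of 0.332 by limma. Members whose groups did not overlap were Rplp0-ps1, Rpl21-ps14 and Rpl21-ps7, 1.82% against 4.11% of all genes. Rpl21-ps7 had a mean of 0.0341 FPKM at 12 months and was listed at 0 in every mouse at 3 months. It was thus tested only through the mice of 12 months. The comparisons at 12 and 24 months share the 3-month-old mice, so they are not independent.

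None of the 50 parents met the call at 12 against 3 months, and none had an adjusted p under 0.05 by limma. At an unadjusted p under 0.05 there were 15, 30% against 14.3% of all genes. Of these 13 were higher at 12 months, 26% against 11.4%, and 2, Rpl10 and Rps2, were lower, 4% against 2.9%. The median log2 fold change was 0.18 over the parents and 0.02 over all genes. With the 6 libraries left out 5 parents passed the unadjusted limit, 10% against 10.2% of all genes: Rpl13, Rpl19, Rpl34, Rps15a and Rps23, all higher. The parents named here were chosen after their values were seen.

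At 24 against 12 months no member of 178 met the call, against 0.17% of the 32282 genes tested, and none passed the adjusted limit, against 0.0031%. By limma 6 members had an unadjusted p under 0.05, 3.37% against 6.43% of all genes. Rpl21-ps14 was among them, with a log2 fold change of 0.28, a standard error of 0.12 and an adjusted p of 0.747. Among the parents Rpl18 and Rps7, both lower at 24 months and both named after their values were seen, passed the unadjusted limit, 4%. With the 6 libraries left out no member of 164 met the call, against 0.403% of all genes. Rpl28-ps4 was the single member whose groups did not overlap, 0.562% against 1.07% of all genes. Listed at 0 in every mouse of 12 months, it was tested only through the mice of 24 months.

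The last comparison asked whether a pseudogene and its parent moved apart with age. For each of the 10 pseudogenes with the highest mean FPKM, log2(FPKM + 1) of the parent was subtracted from that of the copy in every mouse, and the means at 24 and 3 months were compared by an exact permutation test, two-sided, over every assignment of the 10 mice to 2 groups of 5. The smallest p this design allows is 0.00794, and the p-values of the 10 pairs are unadjusted. In 2 of the 10 pairs the p of this exact permutation test was under 0.05.

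Rps2-ps10 rose against Rps2 by 1.96 (exact permutation p = 0.0159). Rps2 had 303 ± 22.6 FPKM at 3 months and 233 ± 48.3 at 24 months, so part of this difference lay with the parent. In percent of Rps2, Rps2-ps10 had 0.283% to 1.09% at 3 months and 0.417% to 7.45% at 24 months, with overlap.

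Rpl5-ps1 rose against Rpl5, a large-subunit protein that binds the smallest ribosomal RNA, by 0.51 (exact permutation p = 0.0317). Its levels were 3.59, 4.19, 4.44, 5.11 and 9.0 FPKM at 3 months and 5.59, 7.74, 8.15, 8.75 and 10.6 at 24 months. The highest value at 3 months was that of replicate 8, 1 of the 6 libraries, and the other 4 lay below all 5 mice at 24 months. As a percent of Rpl5 the range was 4.26% to 7.81% at 3 months and 6.24% to 11.2% at 24 months. Without the 6 libraries, with 4 mice against 3, no pair had a p under 0.05, and those of Rpl5-ps1 and Rps2-ps10 were 0.0571 and 0.171 (exact permutation test). Fewer assignments exist with 4 mice against 3, so small p-values are harder to reach. In these mice Rpl5-ps1 had 4.26% to 6.10% of Rpl5 at 3 months and 6.24% to 7.93% at 24 months, with no overlap. Its p above 0.05 thus does not show that the difference was lost.

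The other 8 pairs differed by -0.38 to 0.71 with exact permutation p between 0.135 and 0.897. Rpl15-ps3 was the pair with a negative difference, -0.38, which rested on a single mouse. It had 3.98 to 5.74 FPKM at 3 months and 3.25 to 5.58 in 4 mice at 24 months, and was listed at 0 in 24-month replicate 34. With that mouse left out its difference was 0.078. When the 6 libraries were left out the difference of Rpl15-ps3 was -0.0029, and 4 other pairs were negative: Rpl27-ps3 at -0.44, Rpl10a-ps1 at -0.13, Rpl3-ps1 at -0.044 and Rps2-ps6 at -0.011. In 24-month replicate 34 Rpl36al was at 2.01 FPKM, its lowest value, against a mean of 18.7 over the 15 mice.

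For several pairs the ratio of copy to parent divided by library within each age. The 10 copies held 66.6% of the summed FPKM by which the 6 libraries were set apart, so this is a description. Rpl10-ps3 had 20.4% to 29.3% of the FPKM of Rpl10 in the 6 libraries and 9.21% to 16.2% in the other 9. For Rpl27-ps3 the ranges were 15.8% to 24.9% and 1.74% to 4.55%, and for Rps2-ps6 they were 2.42% to 7.72% and 0.971% to 1.31%. Over the 15 mice Rpl27-ps3 varied by an SD of 1.08 on the log2(FPKM + 1) scale and Rpl27 by 0.38. Each of the 10 copies varied more than its parent on this scale, with SDs of 0.41 to 1.18 against 0.13 to 0.38.

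**Figure D5:**
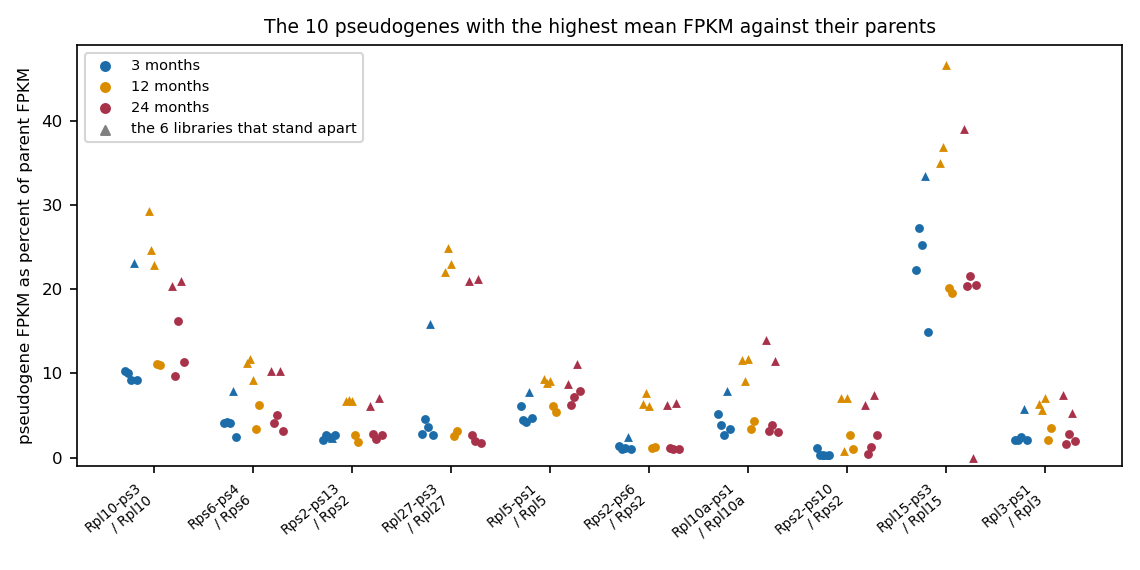
For the 10 pseudogenes with the highest mean FPKM, each point gives 1 mouse's pseudogene FPKM as a percent of parent FPKM, coloured by age, and triangles are the 6 libraries that stood apart. Triangles lie above all circles of the same pair for Rpl10-ps3, Rps6-ps4, Rpl27-ps3, Rps2-ps6, Rpl10a-ps1 and Rpl3-ps1, and colours overlap in every pair. The 6 were set apart by a summed FPKM that includes these 10 pseudogenes.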

How the data were processed

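RNA of kidneys from 15 male mice was sequenced after removal of ribosomal RNA per the labels, while the study's methods describe oligo(dT) purification. Ages came from the age label, since sample titles begin alike at all ages. The authors assembled transcripts with StringTie and deposited FPKM and coverage of each transcript per mouse, on GRCm38. The methods name Bowtie2 and HISAT2 for mapping, and the submitters' notes name TopHat2. The deposited coverage (signal) served only to estimate aligned bases, as the median of coverage over FPKM.

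FPKM were summed per gene over class codes =, c, j and o. Genes above 0 in at least 1 mouse compared were fitted with limma 3.58.1 (R 4.3.3, trended prior) on log2(FPKM + 1), which understates the change of low genes. A call was an unadjusted p under 0.05 with a log2 fold change beyond 1. The test was tried on simulated data in which only genes of higher level were changed, by 1.5 on the log2 scale, and 92.5% of them were called. It does not cover genes at low levels, as most members are. Sequences were aligned with Biopython 1.88 under Python 3.11.15. Genes named were the 10 highest members and their parents, called members, the 3 highest ratios to a parent and the 3 smallest p at 24 months. The members and lists were chosen with earlier results of these data known. Alternatives were another pseudocount, filter, scaling, fit and call, and leaving out each mouse or the 6 libraries that stood apart.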

Additional observations from a re-analysis of the deposited data

Results flagged for a closer look

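In 54 groups of 5 mice the gap of the highest or lowest mouse was compared with Dixon's critical value of 0.71, which chance passes in about 1 of 20 groups, and 10 groups passed. The groups share libraries and so are not independent. The 54 include Rpl28-ps4 at 3 and at 12 months, which was at 0 in every mouse and had no gap to compare.

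In 9 of the 10 the mouse was 3-month replicate 8. It had 59.9 FPKM of Rpl10-ps3, where the other mice of its age had 22.3 to 27.4. Rps6-ps4 was at 14.8 FPKM against 4.47 to 6.76, and Rpl5-ps1 at 9.0 against 3.59 to 5.11. Rps2-ps6 was at 7.26 against 2.94 to 3.78, and Rpl10a-ps1 at 7.61 against 2.77 to 4.15. Rpl3-ps1 had 6.79 FPKM against 2.03 to 2.44, and Rpl36a-ps3 1.77 against 1.02 to 1.17. Its members summed to 182 FPKM against 97.3 to 112, and held 4.87% of pseudogene and parent FPKM against 2.37% to 3.00%.

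The other was Rps2-ps10 in 3-month replicate 5, at 3.13 FPKM against 0.885 to 1.0 in the rest of its age, and all of it lay on the longer of its 2 transcripts.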

How the results depend on the processing

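At 24 against 3 months 3 members were called. A pseudocount of 0.1 gave 10, TPM 6 and an unadjusted p without a fold limit 13, and with each mouse left out 2 to 3 were called. Of all genes these settings called 3.29%, 1.83%, 14.9% and 0.518% to 0.606%. Rpl21-ps14 lost the call without 3-month replicate 6 or 24-month replicate 35, at 0.987 and 0.999, just under the fold limit. The parents went from 0 to 6 with the unadjusted p. At 12 against 3 months 2 became 6, 4, 0 with adjusted p and 17, and 2 to 6 with a mouse left out: 4 without 3-month replicate 8 or 12-month replicate 21, 6 without 12-month replicate 20. The shares of all genes were 2.92%, 1.5%, 0.25%, 14.3% and 0.48% to 0.596%. At 24 against 12 months 0 became 4, 1 and 6, and 0 to 1 with a mouse left out, 1 without 24-month replicate 31, where all genes gave 1%, 0.592%, 6.43% and 0.178% to 0.254%. Pairs past the limit went from 2 to 1 with annotated transcripts only and 0 without the 6 libraries. The latter, with 4 mice against 3, allows fewer assignments. With a mouse left out there were 1 to 3, being 1 without 3-month replicates 6, 7 or 9 or 24-month replicates 31, 34 or 35.

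The alternative without the 6 libraries was chosen after seeing the data. It turned log2 fold changes to -0.032 for Rpl10-ps3, -0.14 for Rps2-ps13, -0.64 for Rpl27-ps3, -0.22 for Rps2-ps6, -0.027 for Rpl10a-ps1, -0.019 for Rpl3-ps1 and -0.14 for Rpl36a-ps3, and differences from the parent to -0.44 for Rpl27-ps3, -0.011 for Rps2-ps6, -0.13 for Rpl10a-ps1 and -0.044 for Rpl3-ps1. The share on pseudogenes at 12 months became 2.59%, which follows from how the 6 were chosen. None of these was called in either fit. Rpl27-ps3 turned to -0.044 with a pseudocount of 0.1 and -0.0097 with TPM. With a mouse left out log2 fold changes ran from -0.11 to 0.26 for Rpl10-ps3, -0.33 to 0.34 for Rpl27-ps3 and -0.0041 to 0.52 for Rpl3-ps1, and differences from the parent from -0.14 to 0.69 for Rpl27-ps3, -0.00018 to 0.46 for Rpl3-ps1 and -0.64 to 0.078 for Rpl15-ps3. Mean members per mouse fell from 96.8, 104.0 and 104.4 above 0 to 69.4, 68.2 and 70.0 at 0.1 FPKM or more, and 21.2, 26.0 and 23.4 at 1 or more. The cause of these shifts was not tested. No paired analysis was possible because the ages share no replicate numbers.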

Other observations

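Transcripts carrying a member's name outside the class codes used, which no comparison includes, were antisense to Rpl13-ps5 at a mean of 0.394 FPKM, to Rpl30-ps2 at 0.127 and to Rps7-ps1 at 0.707, where Rps7-ps1 itself had 0.157. A transcript named for Rpl31-ps11 had 0.147 FPKM. The non-coding RNA Rn7sk, which has no poly(A) tail, had a median of 3652 FPKM and was listed at 0 in 24-month replicate 35.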
